A study of Mus musculus with 10 samples.

Results

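Apoa2, Apoh, Apof, Pon1, Fgb and Fgg encode proteins that the liver releases into plasma, and their signals were followed in 10 samples of normal mouse thymus. Each of these 6 genes had 1 feature annotated to its symbol alone, among 14860 genes with such a feature and 23332 features in all. The genes were chosen by their signals in these same samples, namely their higher values in mdm2-null than in mdm2 wild-type thymus, so that this difference is given as a description and without a test. The mice were C57BL6/129 hybrids of 4 to 5 weeks. The groups were p53(-/-) with mdm2(+/+) (n = 3), p53(246/246) with mdm2(+/+) (n = 3), p53(-/-) with mdm2(-/-) (n = 2) and p53(246/246) with mdm2(-/-) (n = 2). They are called p53-null or mutant p53, each mdm2 wild-type or mdm2-null. None of the groups had wild-type p53, and all mice were therefore without normal p53. The 246 alleles are not described further in the labels, nor is the part of mdm2 that was deleted, and the labels do not say whether replicates came from separate animals or how many mice gave each sample.

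The tissue label and the mdm2 genotype could be checked in the data, and 1 technical feature followed the groups. The mean log2 signal of 12 thymocyte marker genes was 10.70 to 11.06 in all samples, and Cd8a, the coreceptor of cytotoxic T cells, averaged 12.77 in mdm2 wild-type and 12.62 in mdm2-null samples. The Mdm2 signal was 9.47 to 9.62 in the mdm2 wild-type samples and 8.28 to 8.43 in the mdm2-null ones, so that each of the 10 samples fell on the side its mdm2 label gives. The feature still had a signal in mdm2-null samples, at the 77.1st to 78.9th percentile of their arrays, and whether it lies in the deleted part is not given in the labels. The Y-linked genes Kdm5d and Eif2s3y gave signals of 3.73 and 3.46 in replicate 1 of the p53-null, mdm2 wild-type group and at least 7.27 in every other sample; sex is not in the labels. The array names formed 3 sets: 1 set held all 6 mdm2 wild-type samples, and each mdm2-null group had a set of its own. Array set and genotype cannot be told apart in any comparison that involves mdm2-null samples.

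As background, apolipoproteins are the protein parts of the particles that carry cholesterol and triglyceride in blood, and hepatocytes make most of them. Apoa2 is a major protein of high-density lipoprotein. Pon1, a paraoxonase, is an esterase that travels on the same particles, and Apof is a minor apolipoprotein. Apoh, also known as beta2-glycoprotein I, binds anionic phospholipids. Fibrinogen is built from the alpha, beta and gamma chains encoded by Fga, Fgb and Fgg, and thrombin turns it into the fibrin of blood clots. In mice, loss of mdm2 is lethal to the embryo when p53 is wild-type, since Mdm2 marks p53 for degradation.

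The features of the 6 genes were 6755165 (Apoa2), 6784760 (Apoh), 6771639 (Apof), 6951396 (Pon1), 6906386 (Fgb) and 6898771 (Fgg). Apoa2 lies on chromosome 1 and Apoh on chromosome 11. The 3 fibrinogen chain genes lie next to each other on chromosome 3, with Fga between Fgg and Fgb in the order of coding genes of assembly GRCm38.p6. Pon1 adjoins Pon3 on chromosome 6, and Apof adjoins Apon on chromosome 10. The 150 bases before the annotated start of each fibrinogen gene are printed. Fgb and Fgg had the most similar patterns among the members, and Fga, which is not a member, lies in the same cluster. They were taken from RefSeq promoter entries (build GRCm38.p6), which matched 5 of the 6 members. Capitals mark the letters GTTAAT or their reverse complement, the core of sites bound by the hepatocyte factor HNF1.
Fgb, chr3:83049864-83050013, minus strand: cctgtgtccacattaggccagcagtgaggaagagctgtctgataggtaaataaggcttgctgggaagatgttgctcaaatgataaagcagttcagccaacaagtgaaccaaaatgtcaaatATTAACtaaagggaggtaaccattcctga
Fgg, chr3:83007574-83007723, plus strand: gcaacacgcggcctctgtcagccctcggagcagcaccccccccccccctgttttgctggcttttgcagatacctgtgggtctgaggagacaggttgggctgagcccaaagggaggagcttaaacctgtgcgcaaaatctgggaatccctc
Fga, chr3:83026003-83026152, plus strand: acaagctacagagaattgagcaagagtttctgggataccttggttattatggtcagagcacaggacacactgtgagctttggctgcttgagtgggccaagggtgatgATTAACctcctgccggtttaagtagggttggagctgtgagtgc
The GTTAAT letters lay 29 to 24 bases before the start of Fgb and 43 to 38 bases before that of Fga, both on the strand opposite to the gene. The window of Fgg held no such match. On either strand the letters occurred in 3.71% of 32851 promoter windows of 150 bases, and in 1 of the 6 windows of the members, where Apoa2 has 2 annotated starts. The letters CCAAT were found in 2 of these 6 windows, 1 of Apoa2 and that of Pon1, against 24.5% of all windows. AGGTCA, a core of nuclear receptor sites, and TATAAA, the TATA box, were found in 0 of the 6 windows, against 8.58% and 7.57% of all windows. No letters belonged to more than 1 match. A match describes the letters only.

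Apoa2, Apoh, Apof and Pon1 were each higher in every mdm2-null sample than in any sample with mdm2. Apoa2 measured 4.84, 4.91 and 5.26 in the p53-null samples and 5.53, 4.85 and 5.14 in the mutant p53 samples (log2 signal, replicates 1 to 3). It was above all of these in each mdm2-null sample, with 6.78 and 9.85 in p53-null replicates 1 and 2 and 7.74 and 9.71 in mutant p53 replicates 1 and 2. The mdm2 genotypes did not overlap, and replicate 2 was the higher sample in both mdm2-null groups. The mdm2-null mean exceeded the mdm2 wild-type mean by 3.43 (SE 0.55), a 10.8-fold difference in signal.

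Apoh measured 4.49, 4.09 and 4.03 in p53-null and 3.96, 4.06 and 4.04 in mutant p53 samples with mdm2. Without mdm2 it measured 5.59 and 8.38 in p53-null and 6.58 and 8.17 in mutant p53 samples. As for Apoa2, every mdm2-null sample was above every mdm2 wild-type one, and the p53-null group held both the lowest and the highest of the 4. The mean difference was 3.07 (SE 0.49).

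Apof had the smallest mean difference of the 6 genes, at 1.82 (SE 0.33). Its signal with mdm2 was 3.78, 3.48 and 3.15 in p53-null and 3.22, 3.58 and 3.45 in mutant p53 samples. Without mdm2 it was 4.09 and 6.01 in p53-null and 5.08 and 5.86 in mutant p53 samples. The groups again did not overlap, but the gap between the highest mdm2 wild-type and the lowest mdm2-null sample was only 0.32. The lowest mdm2-null value was still within the dimmest 25% of signals in that sample, the only mdm2-null value among the 6 genes for which this held.

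Pon1 measured 3.62, 4.13 and 3.48 in p53-null and 3.40, 3.79 and 3.62 in mutant p53 samples with mdm2, and 5.26 and 6.49 in p53-null and 4.75 and 6.79 in mutant p53 samples without it. The mean difference was 2.15 (SE 0.37), and the genotypes did not overlap. Its lowest mdm2-null sample was mutant p53 replicate 1, whereas p53-null replicate 1 was lowest for the other 5 genes.

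Of the 6 genes Fgb had the smallest spread among mdm2 wild-type samples, and Fgg had the largest among mdm2-null samples. Fgb, the beta chain gene, measured 3.93, 3.75 and 4.00 in p53-null and 4.03, 3.98 and 3.98 in mutant p53 samples with mdm2. It measured 5.08 and 8.0 in p53-null and 6.22 and 8.58 in mutant p53 samples without mdm2. Its SD was 0.10 over the 6 mdm2 wild-type and 1.61 over the 4 mdm2-null samples, and its mean difference was 3.03 (SE 0.56). Fgg, the gamma chain gene, measured 3.84, 3.45 and 3.90 in p53-null and 4.13, 4.03 and 3.72 in mutant p53 samples with mdm2, and 4.80, 8.04, 6.17 and 8.47 in p53-null replicates 1 and 2 and mutant p53 replicates 1 and 2 without it. Its SD was 0.24 and 1.70, and its mean difference was 3.03 (SE 0.60). Both chains had the same order of the 4 mdm2-null samples, from mutant p53 replicate 2 through p53-null replicate 2 and mutant p53 replicate 1 to p53-null replicate 1.

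**Figure D1:**
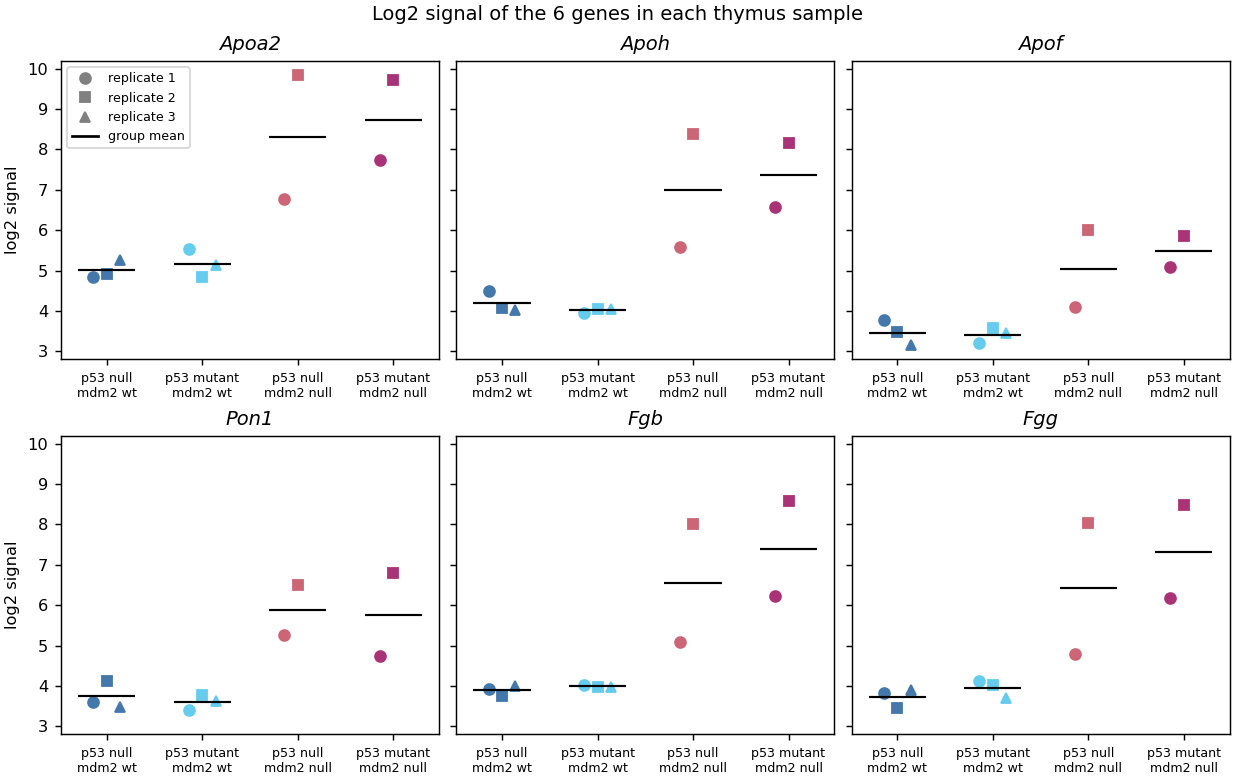
Log2 signal (y axis) of the 6 genes in each sample of the 4 genotype groups (x axis), where symbols are samples by replicate number and black lines are group means. All 4 mdm2-null samples lie above all 6 mdm2 wild-type samples in each panel, and the replicate 2 squares lie above the replicate 1 circles in both mdm2-null groups.

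Over all features, 3.93% had every mdm2-null sample above every mdm2 wild-type sample, as had 6 of 6 members, which were chosen by that contrast. With mdm2, Apof, Pon1, Fgb and Fgg were below the first quartile of the array signals (4.30 to 4.45) in 6 of 6 samples and Apoh in 5 of 6. Apoa2 lay above it in each sample, between the 32.2nd and 41.8th percentile. Detection calls were not among the values used, so how far these signals lay above background is unknown. In bulk tissue, fewer cells that express a gene and less RNA per cell cannot be told apart.

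The excess over mdm2 wild-type thymus varied between mdm2-null samples. Taken against the mean of the 6 mdm2 wild-type samples, the median of the 6 genes was 1.31 in p53-null replicate 1, with a range of 0.65 to 1.69, and 2.31 in mutant p53 replicate 1 (1.07 to 2.65). It was 4.12 in p53-null replicate 2 (2.57 to 4.76) and 4.34 in mutant p53 replicate 2 (2.42 to 4.64). The lowest value of each replicate 2 sample was thus above the medians of both replicate 1 samples. For each gene both replicate 2 samples lay above both replicate 1 samples. That order was found in 6 of 6 members, in 19.0% of all features and in 34.8% of the 917 features whose mdm2-null samples all lay above the mdm2 wild-type ones. The replicate numbers are names from the titles, and the labels link no number to a litter or day. Fgg had the largest step within a group, 3.24 or 9.43-fold from replicate 1 to 2 of p53-null, and Apof the smallest, 0.78 or 1.71-fold in mutant p53. Alb, the serum albumin gene, had the same order of samples as Apoa2, with differences from the mdm2 wild-type mean of 5.68 and 7.83 in p53-null and 6.83 and 7.71 in mutant p53 replicates 1 and 2. Fga, the remaining fibrinogen chain gene, had those of Fgb and Fgg, with 0.80, 3.04, 1.45 and 3.34 in the same samples.

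**Figure D2:**
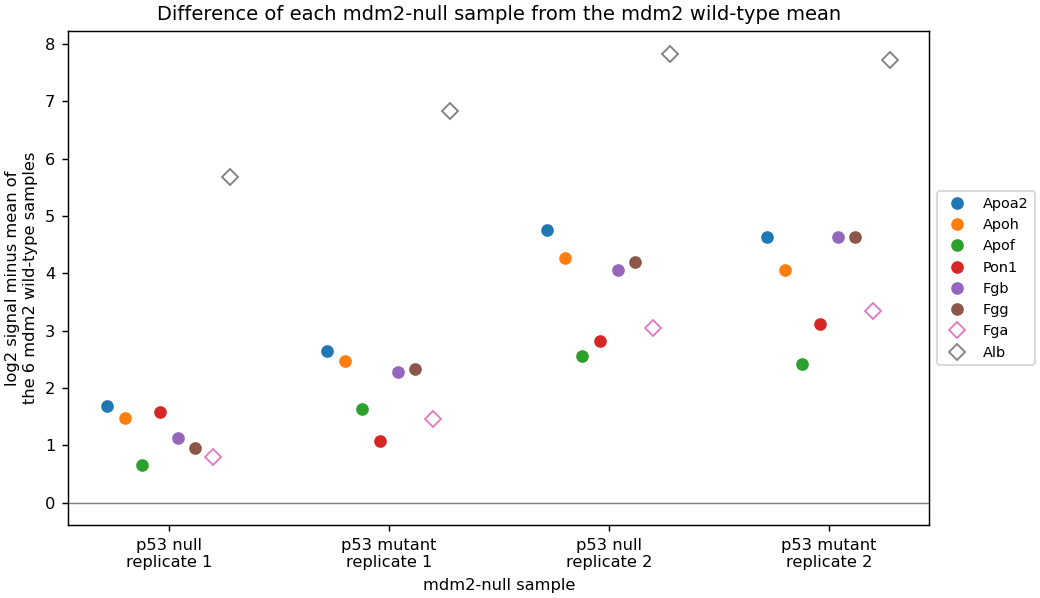
Difference of each mdm2-null sample (x axis) from the mean of the 6 mdm2 wild-type samples in log2 signal (y axis), with filled circles for the 6 genes and open diamonds for Fga and Alb. The 6 genes lie between 0.65 and 2.65 in the replicate 1 samples and reach 4.76 in the replicate 2 samples.

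The members followed each other closely over all samples and less so among those with mdm2. Over all 10 samples the 15 pairs of members had Pearson correlations of 0.933 (Pon1 and Fgg) to 0.997 (Fgb and Fgg), which mainly restate the gap between mdm2 genotypes. Within the 6 mdm2 wild-type samples they ranged from -0.91 for Pon1 and Fgb to 0.87 for Fgb and Fgg, with a median of -0.23 and 9 of 15 below 0. At these low signals such values are a description of the arrays.

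The p53 comparisons, which did not choose the members, asked whether mutant p53 thymus differed from p53-null thymus in these genes. With mdm2, no member passed the test. The differences of mutant from null p53 were 0.17 for Apoa2, -0.18 for Apoh, -0.05 for Apof, -0.14 for Pon1, 0.11 for Fgb and 0.23 for Fgg, with SE of 0.43 to 0.79 and adjusted p = 1 in each (limma with Benjamini-Hochberg adjustment over all features). The samples of both p53 genotypes overlapped in each of the 6 genes. Because the fit shares 1 estimate of the spread, the wide mdm2-null groups enter these errors. Fitted to the 6 mdm2 wild-type samples alone, a choice made after seeing the data, the SE were 0.11 to 0.20 and the adjusted p = 1 again. The 95% intervals then ran from -0.31 to 0.64 for Apoa2, -0.53 to 0.16 for Apoh, -0.49 to 0.38 for Apof, -0.61 to 0.33 for Pon1, -0.15 to 0.37 for Fgb and -0.17 to 0.63 for Fgg. Over all features 0.0% were called in this comparison, with 690 at an unadjusted p under 0.05. The plain linear model called 0 and the fit to both groups alone 1.

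Without mdm2, 5 of the 6 differences of mutant from null p53 were positive and none passed the test. They were 0.42 for Apoa2 (95% interval -1.61 to 2.45), 0.39 for Apoh (-1.38 to 2.16), 0.42 for Apof (-0.78 to 1.63), -0.11 for Pon1 (-1.48 to 1.27), 0.86 for Fgb (-1.18 to 2.90) and 0.90 for Fgg (-1.28 to 3.08), each with adjusted p = 1 by limma, and the samples of both p53 genotypes again overlapped in each gene. For Fgg the interval runs from 0.412-fold to 8.48-fold, so equal levels are not shown. Leaving out p53-null replicate 1 turned the differences of Apoa2, Apoh, Apof, Fgb and Fgg to -1.12, -1.0, -0.53, -0.60 and -0.72, and leaving out p53-null replicate 2 raised them to 1.95, 1.79, 1.38, 2.32 and 2.52. The direction thus rested on single samples. Over all features 0.0% were called, with 902 at an unadjusted p under 0.05 and 0 by the plain linear model.

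The mdm2 difference was not shown to depend on p53. It was 1.58 to 3.31 in p53-null and 2.06 to 3.56 in mutant p53 thymus across the 6 genes. The difference between both was largest for Fgb at 0.76 (SE 1.16, adjusted p = 0.995 by limma) and smallest for Pon1 at 0.03 (SE 0.78, adjusted p = 0.999). With the shared estimate of the spread, these SE are too small for genes that vary more without mdm2. Over all features 0.0% were called in this comparison, with 997 at an unadjusted p under 0.05 and 0 by the plain linear model.

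**Figure D3:**
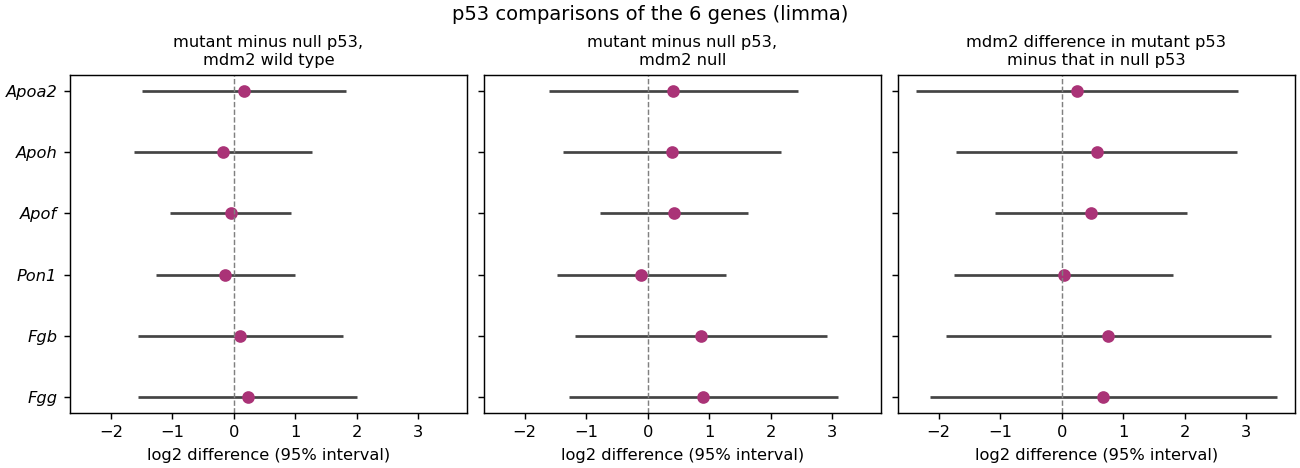
Log2 differences (x axis, points) with 95% intervals (lines) of the 6 genes (y axis) for mutant minus null p53 with mdm2, for the same without mdm2, and for the mdm2 difference in mutant p53 minus that in null p53. Every interval spans 0, and those without mdm2 are wider because they rest on 2 samples in each group.

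Of the other genes of lipoprotein metabolism and clotting, few passed the test for mdm2 loss. Their lists were drawn up with earlier results of these data known, and a gene is called when its adjusted p over all 23332 features is under 0.05 in limma's additive model of p53 and mdm2. Of all features 1.96% were called higher and 1.9% lower without mdm2, and the median change of all features was -0.02. Apoa1 and Apob, the main proteins of high- and low-density lipoprotein, are not analysed here. Of 13 further lipoprotein components measured, 0 were called and the median change was 0.30. The nearest was Apon, an apolipoprotein gene that adjoins Apof, at 0.97 (SE 0.25, adjusted p = 0.058). Apoc3, which slows the clearance of triglyceride-rich particles, differed by 1.47 (adjusted p = 0.086), Apoa5, which promotes triglyceride hydrolysis, by 0.83 (0.133) and Lcat, which esterifies cholesterol on high-density lipoprotein, by 0.51 (0.142). Without p53-null, mdm2-null replicate 1 the count of this list was 4.

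Genes of lipoprotein assembly, lipases and receptors had 0 of 15 calls and a median change of 0.10. Here Abcg5, a sterol exporter of liver and gut, differed by 0.47 (adjusted p = 0.077, limma), Scarb1, the high-density lipoprotein receptor, by 0.29 (0.083), Abca1, a cholesterol exporter, by -0.25 (0.233) and Lsr, a lipoprotein receptor, by 0.23 (0.242). Scarb1 and Abca1 had mdm2 wild-type means of 8.10 and 8.96, above the array medians of 6.10 to 6.26.

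Among clotting factors and their inhibitors 3 of 23 genes rose and 1 fell, with a median change of 0.42. Kng1, the kininogen gene, rose by 2.48 (SE 0.47, adjusted p = 0.03, limma), Fga by 2.16 (SE 0.45, adjusted p = 0.035) and the prothrombin gene F2 by 1.69 (SE 0.39, adjusted p = 0.048). Their SD was 1.32, 1.23 and 1.08 over the 4 mdm2-null samples, against 0.12, 0.18 and 0.16 over the 6 with mdm2. The fit shares 1 estimate of the spread, so with the wider spread in the smaller group these SE and adjusted p are too small. F13a1, the fibrin-crosslinking factor XIII chain that macrophages and megakaryocytes make, fell by 0.38 (SE 0.07, adjusted p = 0.028, limma) from 9.97 to 9.58. That call was lost in 8 of the 10 fits that left out 1 sample and with the replicate block (adjusted p = 0.101, limma). In fibrinolysis 2 of 6 rose, namely Plg, the plasminogen gene, by 2.19 (SE 0.39, adjusted p = 0.025) and the histidine-rich glycoprotein gene Hrg by 1.09 (SE 0.26, adjusted p = 0.049). The rises were unstable too. The calls on Kng1, Fga and Hrg were each lost in 8 of the 10 fits that left out 1 sample, that on F2 in 9 and that on Plg in 5. With the replicate block each of them was lost (adjusted p of 0.068 for Plg to 0.116 for F2, limma). Serpinf2, the plasmin inhibitor, differed by 0.87 (adjusted p = 0.135) and Plau, the urokinase gene, by -0.22 (0.623). The calls were not stable: without mutant p53, mdm2-null replicate 2 the counts of rises were 0 of 23 and 0 of 6, whereas without p53-null, mdm2-null replicate 1 they were 9 and 2. Both counts were also 0 by the plain linear model, and the clotting count was 0 without both mdm2-null replicate 2 samples.

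Of 16 hepatocyte transcription factors only Cebpa, which fat cells and myeloid cells express too, was called, with a rise of 0.56 (SE 0.10, adjusted p = 0.027, limma). Cebpb differed by 0.35 (adjusted p = 0.145), Ppara by 0.43 (0.15) and the bile acid receptor gene Nr1h4 by 0.29 (0.187). The median change of the list was 0.16, and the call on Cebpa was lost in 5 of the 10 fits that left out 1 sample.

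**Figure D4:**
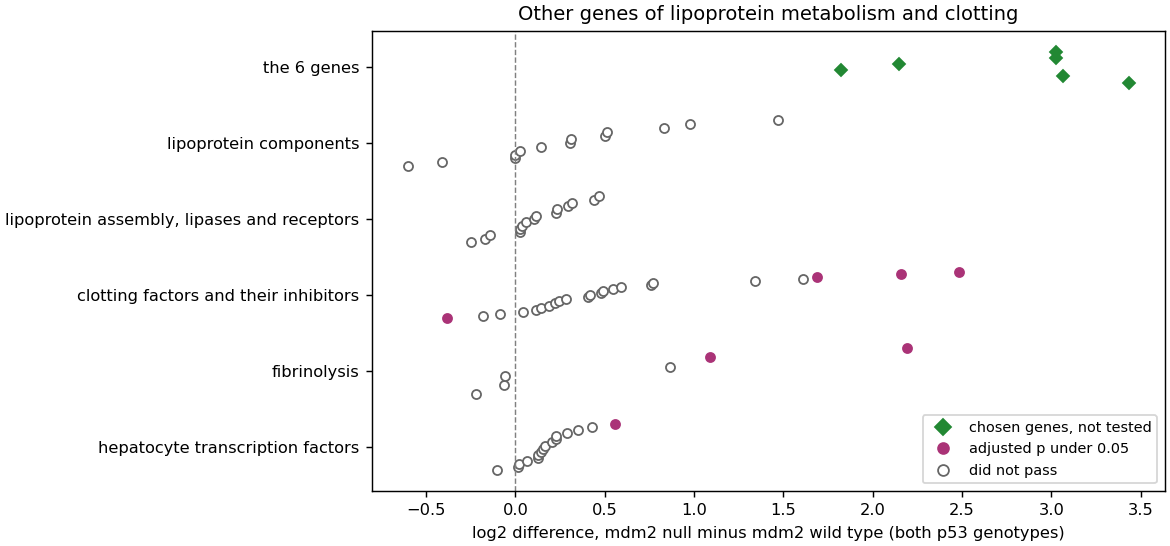
Log2 difference of mdm2-null from mdm2 wild-type samples over both p53 genotypes (x axis) for each gene of 5 lists and for the 6 genes (y axis), with filled circles for genes at an adjusted p under 0.05, open circles for others and diamonds for the chosen genes, which were not tested. The 6 genes lie between 1.82 and 3.43, and the called clotting and fibrinolysis genes between 1.09 and 2.48 apart from F13a1 at -0.38.

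Hepatocyte markers were higher in the same samples as the members. This list, too, was drawn up with earlier results of these data known, and the contrast is the one that chose the members. Its p-values are therefore no independent test. Of 15 measured markers 12 rose and 0 fell, with a median change of 2.27 and adjusted p of 3.99e-05 for Alb by limma. Ahsg, the fetuin-A gene, rose by 4.71 (adjusted p = 0.0071), the thyroid hormone carrier gene Ttr by 4.00 (0.00884) and the retinol carrier gene Rbp4 by 3.23 (0.0108). Without mutant p53, mdm2-null replicate 2 the count was 5. The mean signal of these markers was 4.36 to 4.85 with mdm2 and 6.07 to 8.31 without it, and as for the members both replicate 2 samples exceeded both replicate 1 samples. The part of hepatocyte RNA in the signals of the members was not tested.

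Markers of other cells showed other patterns, and their part in the results was not tested either. Markers of liver macrophages and sinusoids had a mean signal of 4.55 to 5.02 with and 4.73 to 4.89 without mdm2, and 0 of 6 were called. Timd4, the brightest of them, differed by 0.15. Platelet markers, which bear on fibrinogen because platelets carry it, had 0 of 6 calls and 4.48 to 4.90 against 4.57 to 4.90, with Pf4 at 0.33. Among markers of intestine, which also secretes apolipoproteins, 0 of 6 were called, with 4.04 to 4.54 against 3.94 to 4.27 and Cdh17 at -0.62. Exocrine pancreas (0 of 5, Cela1 at 0.16), kidney (0 of 5, Aqp2 at -0.14), skeletal muscle (0 of 7, Mylpf at 0.44), thymic epithelium (0 of 10, Ccl25 at -0.10) and thymocytes (0 of 12, Cd8a at -0.14) had no calls. The median change was -0.10, -0.06, 0.16, -0.01 and -0.13 in these 5 lists. In the same order 1 of 5, 0 of 5, 6 of 7, 5 of 10 and 1 of 12 differences were positive. The thymocyte markers nearest to the threshold were Rag2 at -0.61 (adjusted p = 0.053, limma) and Cd3g at -0.39 (0.061). Adipocyte markers had 2 of 11 calls, both rises, namely Cidea by 2.18 (adjusted p = 0.0455, limma) and the glucose transporter gene Slc2a4 by 0.997 (0.0317), which are named because of their calls. The count was smaller in 9 of the 10 fits that left out 1 sample, down to 0, for example without mutant p53, mdm2-null replicate 2, and 0 by the plain linear model. The list had a median change of 0.72, with 10 of 11 differences positive, and a mean signal of 4.77 to 5.70 with and 5.16 to 6.59 without mdm2, and the order of samples differed from that of the members, as p53-null replicate 1 exceeded p53-null replicate 2. Adipoq, the adiponectin gene and the brightest of them over all samples, differed by 1.57 (adjusted p = 0.143). Erythroid markers had 0 of 6 calls and a median change of 0.40, with 6 of 6 differences positive, and p53-null replicate 1, the lowest mdm2-null sample for 5 of the 6 members, was the highest of all samples at 5.68, with Alas2 at 0.86.

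**Figure D5:**
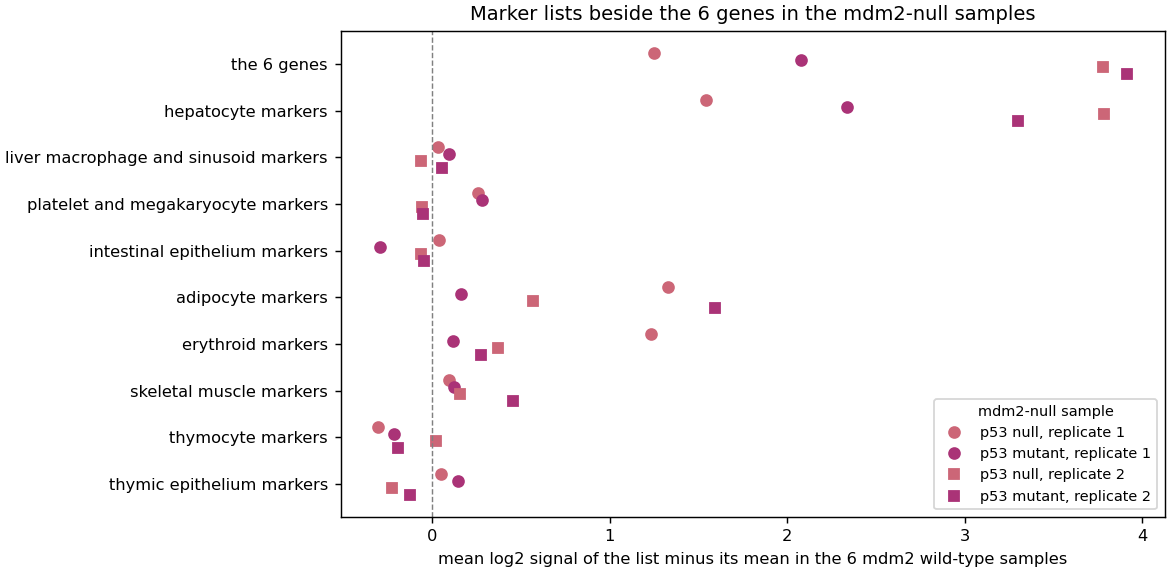
Mean log2 signal of the 6 genes and of 9 marker lists (y axis) in each mdm2-null sample, as the difference from the mean of the 6 mdm2 wild-type samples (x axis). The hepatocyte markers and the 6 genes reach 3.78 and 3.91, with the replicate 2 squares to the right of the replicate 1 circles, while adipocyte and erythroid markers have other orders of samples.

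The genes with the pattern most like the mean of the members, by Pearson correlation over the 10 samples, were Plg (0.998), Ambp (0.998), Kng1 (0.996), Pzp (0.995), Fbp1 (0.994), Fga (0.992), Cyp2j5 (0.991), Hrg (0.988), Azgp1 (0.988) and 1300017J02Rik (0.987). The correlation follows the gap between mdm2 genotypes and the order of the 4 mdm2-null samples. Across these 10 genes the mdm2-null mean was 1.09 to 2.73 above the mdm2 wild-type mean, with Ambp, the precursor gene of alpha-1-microglobulin and bikunin, at 2.73. By Spearman correlation 0 of these 10 were among the leading 10.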

How the data were processed

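RNA from mouse thymus was hybridised to 1-colour Affymetrix whole-transcript arrays after ribosomal RNA reduction, per the labels' protocols. The authors processed the arrays in Partek 6.5 with build mm8, per the submitters' processing notes; background correction, normalization and probe summary are not given in the sources used here. The deposited values lie on a log2 scale and were used unchanged, with 0 columns of values left out. Features were named from the platform annotation, with the symbols of assembly GRCm38.p6 where the gene identifier matched.

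Groups came from the sample titles. All 23332 features were fitted with limma 3.58.1 in R 4.3.3 (lmFit, eBayes, two-sided), with 1 mean for each group for the p53 comparisons and an additive model for mdm2, and p-values were adjusted over all features with a threshold of 0.05. No filter on low values was applied, so that all 6 members were tested; 5 remain without the dimmest 25% of features. Precision is limited by how few arrays each group has, and p-values measure the spread between these samples, which may be technical. The fits assume equal spread in all groups. For genes that vary more among the mdm2-null samples, the errors and p-values of the mdm2 difference are therefore too small. The same holds for the p53 difference without mdm2 and for the difference of mdm2 effects between p53 genotypes. The fits were tested on simulated data with equal spread in all groups, which does not cover the wider mdm2-null spread of the members. The members and lists were chosen with earlier results of these data known. From each pathway list and the hepatocyte markers the 4 genes of smallest p were named, plus Fga and Alb, and from other marker lists the gene with the highest mean over all samples. Alternatives were median centring, quantile normalization, the dim-feature filter, a plain linear model, the replicate number as a block and leaving out each sample. Over all features same-numbered samples deviated little together: 1 of 13 pairs had a correlation of deviations above 0.1. With 2 replicates each, the mdm2-null groups give the same value, 0.076, for both numbers. The check does not cover single genes: in 6 of 6 members both mdm2-null replicate 2 samples lay above both replicate 1 samples.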

Additional observations from a re-analysis of the deposited data

Results flagged for a closer look

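Of 12 checks for a sample far from the others of its mdm2 genotype, 2 found one, where chance gives about 1 in 20. Apoh was at 4.49 in p53-null, mdm2 wild-type replicate 1, against 3.96 to 4.09 in the other 5 mdm2 wild-type samples. That sample is also the one with low signals of the Y-linked genes Kdm5d (3.73) and Eif2s3y (3.46). Without it the p53 difference of Apoh with mdm2 was -0.037. A link between sex and the Apoh signal was not tested. The same sample also had the highest mdm2 wild-type mean of several gene lists. These were lipoprotein assembly, clotting, hepatocyte factors (4.55), hepatocyte, platelet, kidney (4.34), adipocyte and erythroid markers. In the remaining lists another mdm2 wild-type sample was highest. Fgb was at 3.75 in p53-null, mdm2 wild-type replicate 2, below the 3.93 to 4.03 of the others. By percentile of its array that value was not the lowest, at 14.07 against 14.01 for the 3.93 of replicate 1.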

How the results depend on the processing

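The count of 6 non-overlapping members held after median centring and quantile normalization. Leaving out samples could not lower it. In the p53 comparisons 0 members were called under the same alternatives, or under the dim-feature filter, the plain linear model or the replicate block. The mdm2 difference of the members, which chose them, was not tested. Of all features, 902 changed with mdm2 loss (458 higher, 444 lower), against 816 after median centring (539 higher, 277 lower), 1095 after quantile normalization (610 and 485), 1107 without the dimmest 25% of features (550 and 557), 453 with the plain linear model and 61 with the replicate block. The numbers are not taken to pair samples, and the block changed no call on a member. Without both mdm2-null replicate 2 samples, chosen after seeing the data, 105 features were called, the mdm2 differences of the members were 2.17 (Apoa2), 1.97 (Apoh), 1.15 (Apof), 1.33 (Pon1), 1.71 (Fgb) and 1.64 (Fgg), and each of the 3 p53 comparisons had 1 call. Without those samples the difference of mdm2 effects turned to -0.38 for Pon1, and the mdm2 differences to 0.13 for Plau and 0.0062 for Aqp2, none past the threshold, and the cause was not tested. The fit to both mdm2 wild-type groups alone had 1 call on p53.

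Leaving out each sample in turn gave 114 (without mutant p53, mdm2-null replicate 2) to 776 mdm2 calls, 0 to 1 p53 calls with mdm2, 0 to 5 without it and 0 to 2 for the difference of effects. The p53 difference with mdm2 ranged from -0.0087 to 0.33 (Apoa2), -0.21 to 0.10 (Apof) and -0.27 to 0.057 (Pon1). Without mdm2 it ranged from -1.12 to 1.95 (Apoa2), -1.0 to 1.79 (Apoh), -0.53 to 1.38 (Apof), -1.13 to 0.92 (Pon1), -0.60 to 2.32 (Fgb) and -0.72 to 2.52 (Fgg). The difference of effects ranged from -1.29 to 1.79 (Apoa2), -0.82 to 1.97 (Apoh), -0.48 to 1.43 (Apof), -0.99 to 1.05 (Pon1), -0.70 to 2.22 (Fgb) and -0.94 to 2.29 (Fgg). The mdm2 difference of Pf4 ranged from -0.091 to 0.53. None of these differences was past the threshold in any of these fits; with 1 sample left in a group, that sample is assumed to vary like the others. By Spearman correlation 0 of the 10 genes most like the members remained. With the replicate block 0 clotting, 0 fibrinolysis, 0 transcription factor, 5 hepatocyte and 0 adipocyte genes were called higher, and with the plain linear model 6 hepatocyte and 0 adipocyte genes. Detection calls were not used, so the distance of the mdm2 wild-type signals from background is unknown.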
